A study of Mus musculus with 18 samples.

Results

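The genes described here, 7 from 3 families of mRNA decay and antiproliferative factors, are Zfp36, Zfp36l1 and Zfp36l2, Btg1 and Btg2, and Zc3h12a and Zc3h12d. They were taken by gene symbol from the expression table and make up 7 of its 24781 entries. Of these 7, 6 had enough counts to be among the 1916 genes tested, and Zc3h12d did not. The cells were group 2 innate lymphoid cells (ILC2), lymphocytes without rearranged antigen receptors that secrete type 2 cytokines. The 18 libraries fell into 6 groups of 3: lung ILC2 from CD45 KO and control mice, mature bone marrow ILC2 from CD45 KO and control mice, and immature bone marrow ILC2 (also labelled ILC2P) from CD45 KO and control mice. The genotype label of the CD45 KO mice is CD45 KO x Rag2 KO and that of the control mice Rag2 KO, so every mouse lacked Rag2, without which T and B cells do not form. Age, sex, strain, the deleted part of Ptprc (the gene of CD45, a receptor tyrosine phosphatase that acts on Src-family kinases) and whether each library came from its own mouse are not stated in the sources used, so p-values measure only the spread between these libraries, which may be technical.

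All 3 families act on messenger RNA after transcription. ZFP36 proteins bind AU-rich elements in the 3′ untranslated region (UTR) of short-lived transcripts, many of which encode cytokines, and bring in the CCR4-NOT complex, which removes the poly(A) tail. BTG proteins are adaptors between CCR4-NOT and its targets or the poly(A)-binding protein, and are known as antiproliferative factors that help to keep lymphocytes quiescent. ZC3H12A (Regnase-1) is an endonuclease that cuts stem-loops in inflammatory transcripts, and ZC3H12D belongs to the same family. In ILC2, Regnase-1 is known as a brake on activation, and the cytokine transcripts Il5 and Il13 that define ILC2 function are of the unstable kind on which these families act.

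The ZFP36 genes carry in their own 3′ UTRs a match to the sequence that their proteins recognise. The nonamer TTATTTATT, searched on the transcript strand of the longest annotated 3′ UTR of each gene, was found in 3 of the 7 genes, which are the 3 ZFP36 genes, against 7.66% of 21022 genes with an annotated 3′ UTR. The shorter core TATTTAT, which lies inside the nonamer, was found in 4 of 7, with Btg2 as the fourth, against 27.6% of all genes. These shares were not adjusted for length. The median longest 3′ UTR was 1835 bases in the 7 genes and 961 bases in all genes. Among 22 transcripts listed as known AU-rich element or ZFP36 targets, 20 held the core and 10 the nonamer. The windows below are shown because they hold matches to these motifs in the ZFP36 genes, in Btg2 and in target transcripts whose levels are given further on. They are 30 bases each, read 5′ to 3′ on the transcript strand of mm10 (annotation GENCODE M21), with the nonamer or, for Btg2 and Il5, the core in capitals.
Zfp36 (chr7:28376950-28376979, minus strand): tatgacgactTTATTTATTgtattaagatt
Zfp36l1 (chr12:80108166-80108195, minus strand): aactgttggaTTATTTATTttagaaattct
Zfp36l2 (chr17:84184913-84184942, minus strand): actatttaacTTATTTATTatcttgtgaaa
Btg2 (chr1:134077248-134077277, minus strand): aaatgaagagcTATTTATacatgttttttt
Csf2 (chr11:54247328-54247357, minus strand): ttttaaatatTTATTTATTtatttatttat
Il13 (chr11:53631740-53631769, minus strand): cttcttgatcTTATTTATTatggttgtgtg
Il5 (chr11:53724118-53724147, plus strand): gtttccatttaTATTTATgtcctgtagtca
Pim1 (chr17:29495689-29495718, plus strand): tttaatgtatTTATTTATTtatttatttgg
The Csf2 and Pim1 windows hold the element in overlapping copies. Over the longest 3′ UTR, the nonamer was found 4 times in Csf2, 3 times in Pim1 and 1 time in each ZFP36 gene. The core was found 9 times in Csf2, 4 times in Pim1 and 3 times in each ZFP36 gene. Il13 held each motif 1 time. Neither motif was present in the longest 3′ UTR of Btg1, Zc3h12a or Zc3h12d. A match is a run of letters and not a measured binding site.

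Promoter sequence was looked at because these genes moved together between tissues, as given below. RefSeq (build GRCm38.p6) has a promoter entry for 6 of the 7 genes, with none for Zfp36l2, and the 250 bases before the annotated start were searched on both strands for motifs of stimulus-regulated genes. The Btg2 promoter held the full cyclic AMP response element TGACGTCA at -166, a motif present in 1.55% of 32851 promoter windows of that length. The Zfp36l1 promoter held an AP-1 motif (TGANTCA) at -129, present in 6.75% of windows, and a TATA box (TATAAA) at -29, present in 12.4%. These 2 promoters are printed with those motifs in capitals.
Btg2 (chr1:134079156-134079405, minus strand): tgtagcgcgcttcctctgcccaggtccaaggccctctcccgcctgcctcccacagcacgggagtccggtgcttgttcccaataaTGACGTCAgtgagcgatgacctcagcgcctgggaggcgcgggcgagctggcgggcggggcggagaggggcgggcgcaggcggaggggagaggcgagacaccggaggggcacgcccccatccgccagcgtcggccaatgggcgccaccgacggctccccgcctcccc
Zfp36l1 (chr12:80113014-80113263, minus strand): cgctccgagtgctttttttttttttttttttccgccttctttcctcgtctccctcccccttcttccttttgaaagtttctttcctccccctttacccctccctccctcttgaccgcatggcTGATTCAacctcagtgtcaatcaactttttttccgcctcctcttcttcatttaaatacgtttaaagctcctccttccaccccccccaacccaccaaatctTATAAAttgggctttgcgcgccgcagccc
The Zfp36 window held an EGR motif (GCGGGGGCG, 2.57% of windows) at -105 and a CArG box (1.47%) at -58, the element bound by serum response factor. Btg1 held the TATA box at -26. It also held the short form of the cyclic AMP response element (TGACG, contained in the full TGACGTCA, 17.8% of windows) at 2 places. Zc3h12a and Zc3h12d held none of the motifs searched, and the NF-kB motif was found in 0 of the 6 windows (7.25% of all).

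Total counts were 68077 to 122250 per library, and the limit set by a count of 0 in a single library was 25.3 to 44.7 normalised CPM, for counting error only. Levels are CPM, counts scaled to library size with TMM factors, as mean ± SD of 3 libraries, and changes are log2 fold changes ± SE from edgeR's quasi-likelihood test, whose p-values were adjusted (Benjamini-Hochberg) over 1916 genes and held against 0.05. Ptprc, the targeted gene, was lower in CD45 KO libraries of all 3 populations, at 165 ± 59.7 CPM in lung CD45 KO against 579 ± 43.7 CPM in lung control, with log2 changes of -1.86 in lung, -1.68 in mature and -2.01 in immature ILC2. The library labelled mature CD45 KO replicate 1 stood apart from the other libraries of its group. Its chi-square per degree of freedom was 3.45 and 3.66 against them, and 1.12 to 1.69 in all other pairs within groups. That library held 20 Ptprc counts, or 238 CPM. The lowest mature CD45 KO library had 88.0 CPM of Ptprc and the lowest mature control library 253 CPM. All 13 ILC2 markers listed were measured above the filter. No T cell, macrophage, mast cell or erythroid marker listed was, and Cd4, Cd8a, Ncr1 and Csf1r were at 0 in every library. Summed, the T cell list (7 genes) held 13.9 to 52.8 CPM (1 to 6 counts) in lung and 0 to 26.4 CPM in marrow libraries, and the erythroid list (5 genes, 3 at 0) held 0 to 64.2 CPM in lung and 47.7 to 158 CPM in marrow libraries. The list of macrophage and monocyte genes (7, Csf1r among them) held 194.7 CPM (14 counts) in lung CD45 KO replicate 1, 0 in each lung control library and at most 50.5 CPM in any other library. The part of these cells in the results was not tested. The neutrophil list (7 genes, Ly6g at 0) reached 2384 CPM in mature control replicate 1 and at most 167 CPM in any other library. Zfp36, Zfp36l1 and Zfp36l2 are overlapped by annotated genes on the opposite strand, and since the sources used do not state whether counting was stranded, their counts may include reads of those.

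Lung ILC2 held more transcript of every one of the 6 tested genes than bone marrow ILC2. In control mice, 6 of 6 rose in lung against mature marrow (background 25.6% of genes called, 15% higher) and 6 of 6 rose in lung against immature marrow (25.5% called, 14.6% higher), and in both comparisons the 3 lung libraries lay above the 3 marrow libraries for each gene (groups without overlap and lung higher for 20.5% and 20.1% of genes). The median log2 change of the 6 was 2.07 against mature marrow, beside -0.03 for all genes tested, and 2.22 against immature marrow, beside -0.02. Zfp36 and Zc3h12a passed the filter on low counts through their lung levels alone (0 of 12 marrow libraries above the filter's 110 CPM). The filter takes CPM on library totals without TMM factors, unlike the levels given here. The difference of Zfp36 and Zc3h12a was thus in part set by that filter. Neither the counts of members nor the medians stand as support for the group. Zfp36l1, Zfp36l2 and Btg1 were above the filter in 12 of 12 marrow libraries and Btg2 in 3 of 12. Both comparisons use the same 3 lung control libraries. In bulk samples, fewer cells of a type and less RNA per cell cannot be told apart.

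**Figure D1:**
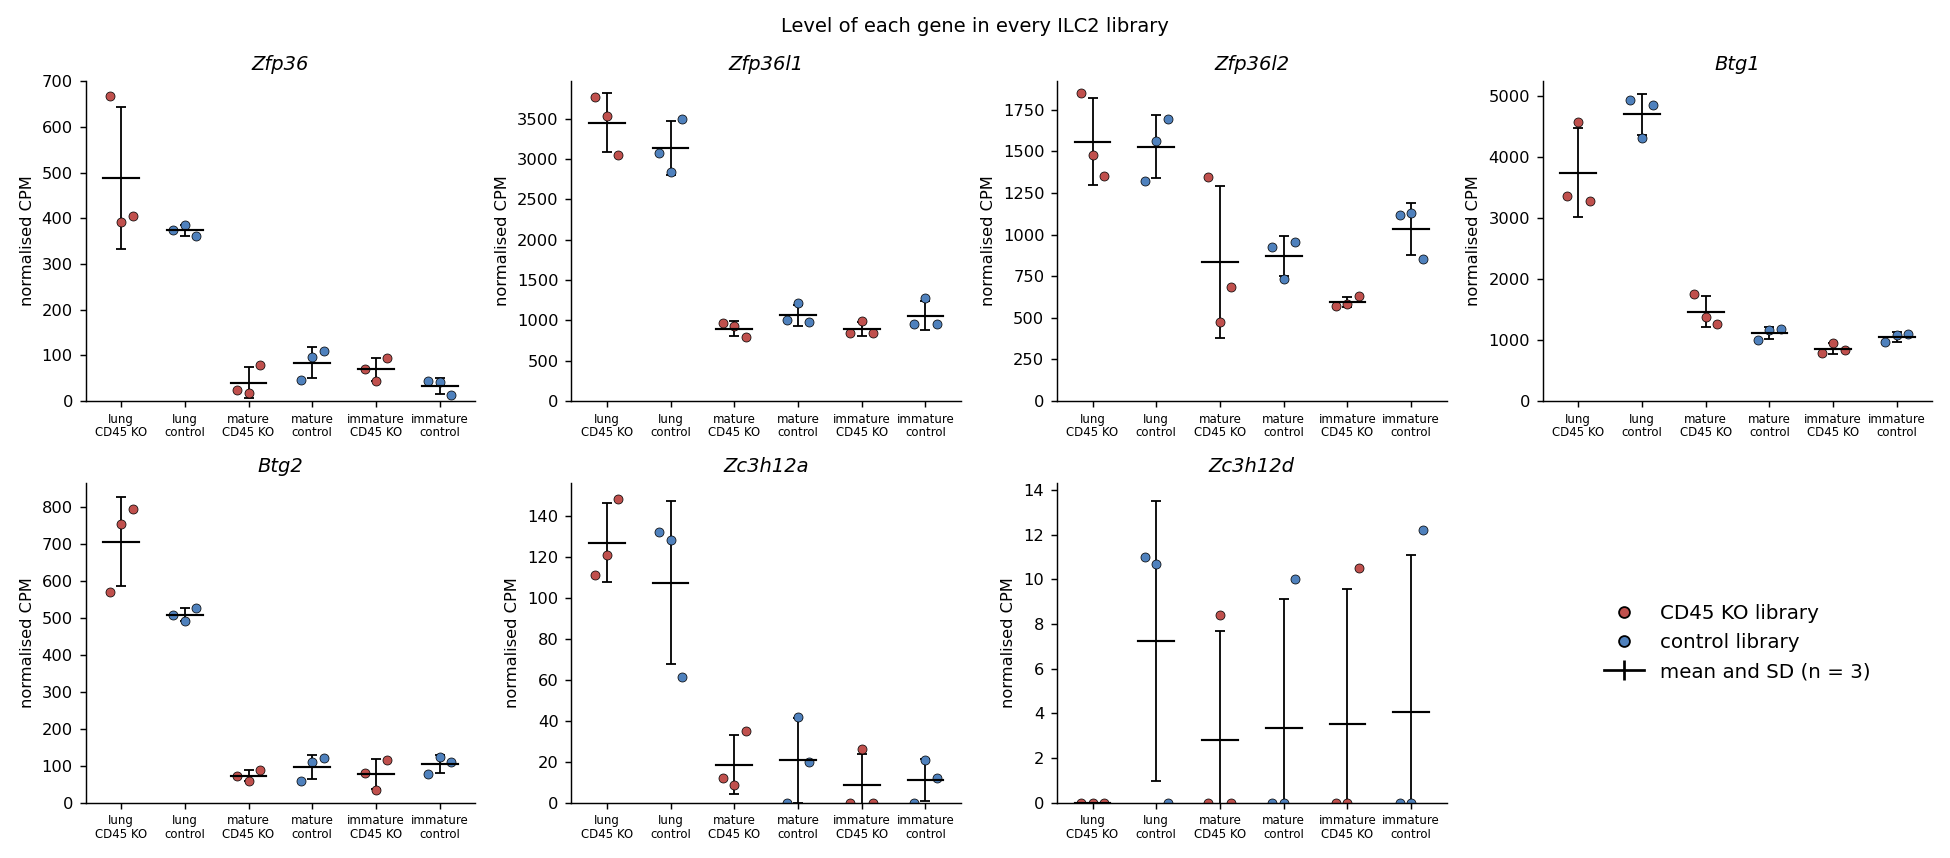
Normalised CPM (y axis, linear from 0, own scale for each gene) of the 7 genes in the 18 libraries, by group on the x axis; points are libraries, horizontal bars group means and vertical bars the SD (n = 3), cut off at 0. The 6 lung libraries lie above all 12 marrow libraries for Zfp36, Zfp36l1, Btg1, Btg2 and Zc3h12a, mature CD45 KO replicate 1 comes up to the lung range for Zfp36l2, and Zc3h12d never exceeds 1 count per library.

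Zfp36 (chr7:28376784-28380253, minus strand, protein coding) encodes tristetraprolin, the founding member of the family and itself an immediate-early gene. It was at 668, 391 and 405 CPM in lung CD45 KO libraries and at 375, 385 and 361 CPM in lung control libraries. In mature marrow it was at 23.8, 16.8 and 79.2 CPM in CD45 KO and at 44.7, 97.2 and 110.3 CPM in control libraries. In immature marrow it was at 69.0, 43.3 and 94.5 CPM in CD45 KO and at 44.2, 41.4 and 12.2 CPM in control libraries. The lowest lung library was thus above the highest marrow library, while the 4 marrow groups lay within 12.2 to 110.3 CPM, which is 1 to 11 counts. The rise from marrow to lung in control mice was 2.07 ± 0.32 against mature (adjusted p = 1.6e-07) and 3.43 ± 0.39 against immature ILC2 (adjusted p = 3.87e-12).

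Between the marrow stages of control mice, Zfp36 had 84.0 ± 34.7 CPM in mature and 32.6 ± 17.7 CPM in immature ILC2, without overlap of the libraries (5.06% of genes higher without overlap). It did not pass (1.36 ± 0.56, adjusted p = 0.858). In CD45 KO ILC2 it was higher than control without overlap in lung (488 ± 156 against 373 ± 12.3 CPM), as were 12.3% of genes. The nearest libraries were at 391 CPM (CD45 KO) and 385 CPM (control). The change did not pass there (0.35 ± 0.22, adjusted p = 0.510), with a single library, CD45 KO replicate 1, at 668 CPM. That library also held the macrophage and monocyte genes at 194.7 CPM, against 0 in lung control, and without it the change was 0.11 ± 0.25 (adjusted p = 0.945). In marrow the values pointed opposite ways, with 40.0 ± 34.2 CPM in mature CD45 KO against 84.0 ± 34.7 CPM in mature control (-1.07 ± 0.51, adjusted p = 0.516) and 68.9 ± 25.6 CPM in immature CD45 KO against 32.6 ± 17.7 CPM in immature control (0.98 ± 0.56, adjusted p = 0.480). The difference between those effects, mature minus immature, was -2.05 ± 0.76 and did not pass (adjusted p = 0.926).

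Zfp36l1 (chr12:80107754-80113013, minus strand, protein coding) encodes a paralogue that, with ZFP36L2, is known for limiting cell cycle entry of developing mouse lymphocytes. It was at 3769, 3527 and 3049 CPM in lung CD45 KO and at 3075, 2835 and 3491 CPM in lung control libraries. All 12 marrow libraries lay between 792 and 1272 CPM, well under the lung range. The rise in control mice was 1.57 ± 0.14 in lung against mature (adjusted p = 6.7e-17) and 1.56 ± 0.14 against immature ILC2 (adjusted p = 3.07e-17). Mature and immature controls had 1059.5 ± 129 and 1058 ± 185 CPM, a difference of -0.01 ± 0.16.

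The CD45 changes of Zfp36l1 did not pass in any population. Lung CD45 KO had 3448 ± 366 CPM against 3134 ± 332 CPM in lung control (0.14 ± 0.12, adjusted p = 0.705). In mature marrow the CD45 KO libraries, at 965, 927 and 792 CPM, were all under the controls, at 998, 1208 and 972 CPM, and the change did not pass (-0.24 ± 0.16, adjusted p = 0.674, with 6.21% of genes lower without overlap). In immature marrow the change was of a like size, -0.25 ± 0.15, with overlapping libraries (adjusted p = 0.532).

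Zfp36l2 (chr17:84183931-84187947, minus strand, protein coding) was the only one of the 6 whose CD45 change passed, and it did so in 1 population. In immature marrow ILC2 it was at 572, 579.8 and 630.2 CPM in CD45 KO libraries and at 1117, 1127 and 854 CPM in control libraries. No CD45 KO library reached the lowest control (8.51% of genes lower without overlap). Zfp36l2 fell to 594 ± 31.7 CPM in immature CD45 KO, against 1033 ± 155 CPM in immature control, a log2 change of -0.81 ± 0.19 (adjusted p = 0.00896, rank 13 of 1916). Thus 1 of 6 members passed there, where 1.67% of all genes did (0.574% lower), and the median of the 6 was -0.27 beside -0.01 for all genes. The call was lost without immature control replicate 1 (adjusted p = 0.0856), without immature control replicate 2 (0.1001) and in the Wald test of DESeq2 (0.116), with log2 changes between -0.92 and -0.71 and adjusted p between 0.000426 and 0.116 over all alternatives run.

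In mature marrow, Zfp36l2 was spread widely among CD45 KO libraries, at 1346, 472 and 686 CPM, with control libraries at 924, 736 and 952 CPM. The highest of these 6 values was that of mature CD45 KO replicate 1, the library that stood apart, and the other CD45 KO libraries lay under all 3 controls. The change was -0.13 ± 0.19 (adjusted p = 0.909) with that library and -0.59 (adjusted p = 0.124) without it, over a range of 0.124 to 0.998 when each library was left out in turn. Leaving out mature CD45 KO replicate 2 turned the sign (0.17).

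In lung, Zfp36l2 was at 1849.6, 1479.6 and 1349 CPM in CD45 KO and at 1323, 1562 and 1697 CPM in control libraries, which overlapped throughout (0.02 ± 0.16, adjusted p = 0.981). The CD45 effect in lung minus that in immature marrow was 0.82 ± 0.25 and did not pass (adjusted p = 0.107), although it passed when only the 12 libraries concerned were fitted (adjusted p = 0.0241, range over these settings 0.0241 to 0.580). Mature minus immature was 0.68 ± 0.27 (adjusted p = 0.926). Whether the fall of Zfp36l2 differs between the populations is therefore not shown.

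The rise of Zfp36l2 from marrow to lung was the smallest of the 6 in these log2 changes, at 0.81 ± 0.18 against mature (adjusted p = 0.000162) and 0.56 ± 0.17 against immature controls (adjusted p = 0.00737). The last call was lost without immature control replicate 3 (adjusted p = 0.0674), without lung control replicate 3 (0.0524) and with DESeq2 (0.0748), over a range of 0.000498 to 0.0748. Mature CD45 KO replicate 1, at 1346 CPM, lay above the lowest lung library, at 1323 CPM.

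**Figure D2:**
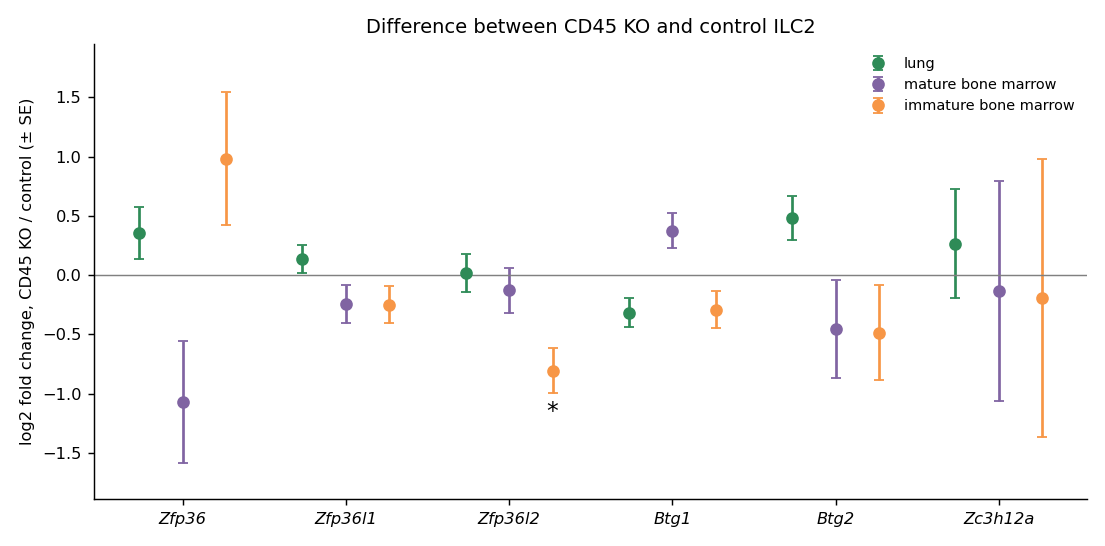
Log2 fold change of CD45 KO over control (y axis, ± SE) for the 6 tested genes (x axis) in lung, mature and immature marrow ILC2; an asterisk marks an adjusted p under 0.05. Only Zfp36l2 in immature ILC2 (-0.81) carries an asterisk, and Btg1 lies above 0 in mature (0.38) and below 0 in immature (-0.29) and lung ILC2 (-0.32).

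Btg1 (chr10:96617006-96622809, plus strand, protein coding) encodes an adaptor that is abundant in resting lymphocytes. It was at 3366, 4578 and 3279 CPM in lung CD45 KO and at 4927, 4311 and 4845 CPM in lung control libraries. In mature marrow it was at 1751, 1381 and 1258 CPM in CD45 KO and at 998, 1166 and 1173 CPM in control libraries. In immature marrow it was at 779, 952 and 830.2 CPM in CD45 KO and at 962, 1086 and 1098 CPM in control libraries. Every mature CD45 KO library was above every mature control, and every immature CD45 KO library was below every immature control.

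None of the Btg1 changes with CD45 passed. They were 0.38 ± 0.15 in mature ILC2 (adjusted p = 0.386), -0.29 ± 0.16 in immature ILC2 (adjusted p = 0.456) and -0.32 ± 0.12 in lung ILC2 (adjusted p = 0.153). Without mature CD45 KO replicate 1, the library that stood apart, the mature change was 0.25 (adjusted p = 0.652). Without mature control replicate 1, the library with neutrophil markers, it was 0.31 (adjusted p = 0.644). In mature ILC2, 0 of 6 members passed by edgeR or DESeq2, where 0.261% of genes did by edgeR. At an unadjusted edgeR p under 0.05 were 2 members, beside 173 of 1916 genes, and 6.58% of genes were higher without overlap. In lung ILC2, 0 of 6 passed by either tool, where 2.51% of genes did by edgeR. There 2 members were at an unadjusted edgeR p under 0.05, beside 277 of 1916 genes. In immature ILC2 8.51% of genes were lower without overlap. The lung change passed without lung CD45 KO replicate 2, the highest of its group (-0.50, adjusted p = 0.0340). It also passed when only the lung libraries were fitted (-0.40, adjusted p = 0.0434). Without lung CD45 KO replicate 1, the library with macrophage and monocyte genes, it was -0.22 (adjusted p = 0.546). Adjusted p ran from 0.0340 to 0.862 across alternatives.

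The CD45 effect on Btg1 in lung minus that in mature marrow was -0.69 ± 0.19, rank 13 of 1916, and did not pass (adjusted p = 0.0754). It passed without lung CD45 KO replicate 2 (-0.87, adjusted p = 0.0187) or without mature CD45 KO replicate 3 (-0.79, adjusted p = 0.0482). It was -0.60 (adjusted p = 0.228) without lung CD45 KO replicate 1 and -0.54 (adjusted p = 0.236) without mature CD45 KO replicate 1. Adjusted p ran from 0.0187 to 0.279 when each library was left out. Across all genes 0.313% passed in that difference and 0 of 6 members did. For lung minus immature the effect difference was -0.03 ± 0.20 (0 of 6 members passed and 0.365% of genes).

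From marrow to lung Btg1 rose by 2.07 ± 0.14 against mature (adjusted p = 2.34e-23, rank 14 of 1916) and 2.16 ± 0.14 against immature controls (adjusted p = 9.11e-25, rank 13). By group mean the order was lung control (4694 ± 335 CPM), lung CD45 KO (3741 ± 727), mature CD45 KO (1464 ± 257), mature control (1112 ± 98.8), immature control (1049 ± 75.4) and immature CD45 KO (853 ± 89.0). The lung groups overlapped, as did mature and immature controls, whereas the other neighbours in that order did not.

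Btg2 (chr1:134075170-134079120, minus strand, protein coding) is the paralogue known as an immediate-early gene and a p53 target. It was at 570.2, 754 and 796 CPM in lung CD45 KO and at 507, 492 and 528 CPM in lung control libraries. The lung groups did not overlap, at 707 ± 120 CPM in CD45 KO against 509 ± 17.8 CPM in control, and the change did not pass (0.48 ± 0.19, adjusted p = 0.173, with 12.3% of genes higher without overlap). The 12 marrow libraries lay between 34.6 and 124 CPM, or 4 to 12 counts.

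In marrow, Btg2 had 72.8 ± 14.6 CPM in mature CD45 KO against 97.0 ± 32.7 CPM in mature control (-0.46 ± 0.42, adjusted p = 0.804) and 76.3 ± 40.5 CPM in immature CD45 KO against 104 ± 23.9 CPM in immature control (-0.49 ± 0.40, adjusted p = 0.661). Its rise from marrow to lung was 2.33 ± 0.28 against mature (adjusted p = 5.13e-11) and 2.28 ± 0.27 against immature controls (adjusted p = 2.35e-11). The effect of CD45 in lung minus that in mature marrow was 0.94 ± 0.46 and did not pass (adjusted p = 0.479), nor did lung minus immature (0.97 ± 0.44, adjusted p = 0.343).

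**Figure D3:**
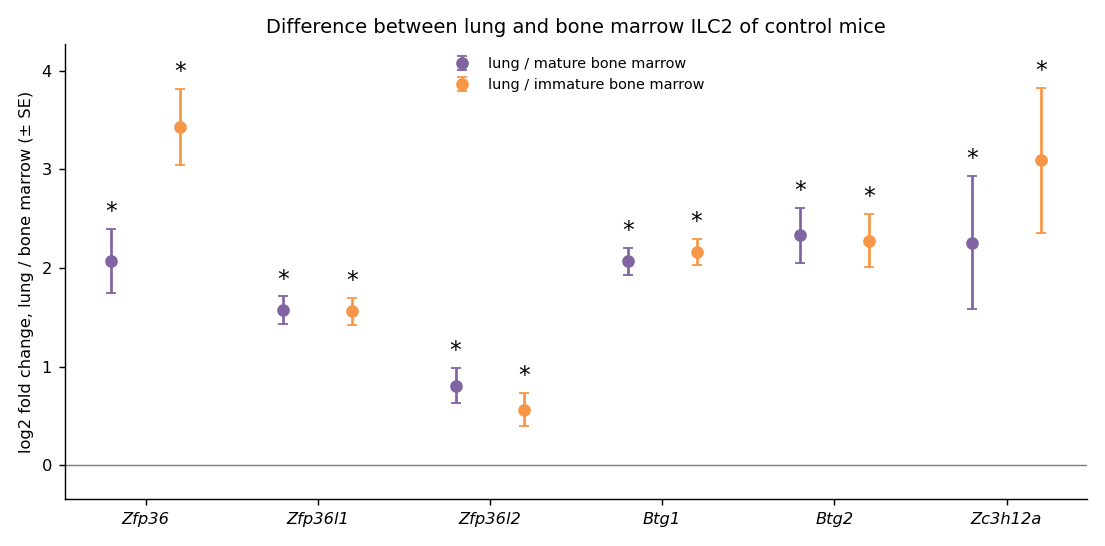
Log2 fold change of lung over marrow ILC2 in control mice (y axis, ± SE) for the 6 tested genes (x axis), against mature and against immature marrow ILC2; an asterisk marks an adjusted p under 0.05. Btg1 (2.07 and 2.16) and Zfp36l1 (1.57 and 1.56) have narrow errors and Zfp36l2 (0.81 and 0.56) the smallest changes.

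Zc3h12a (chr4:125118423-125127840, minus strand, protein coding) encodes the endonuclease Regnase-1. It was at 111, 121 and 148 CPM in lung CD45 KO and at 132, 128 and 61.6 CPM in lung control libraries, from 7 to 13 counts each. In marrow it was at 11.9, 8.42 and 35.2 CPM in mature CD45 KO, at 0, 41.6 and 20.1 CPM in mature control, at 0, 26.0 and 0 CPM in immature CD45 KO and at 0, 20.7 and 12.2 CPM in immature control libraries. Each marrow library held 0 to 4 counts, and all lung libraries were above all marrow libraries.

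The lung rise of Zc3h12a was 2.26 ± 0.67 against mature controls (adjusted p = 0.00725), a call lost without mature control replicate 1, the library with neutrophil markers, where Zc3h12a had 0 counts (1.80, adjusted p = 0.0571, range 0.00379 to 0.0571 when each library was left out). Against immature controls it was 3.09 ± 0.74 (adjusted p = 0.000626). There the pooled counts were 31 in lung and 3 in immature control, a ratio of 9.33 with an exact 95% counting interval of 2.91 to 47.7. With CD45 missing, the log2 differences of Zc3h12a were 0.27 ± 0.46 in lung (adjusted p = 0.894), -0.13 ± 0.93 in mature (adjusted p = 1) and -0.19 ± 1.17 in immature ILC2 (adjusted p = 0.983).

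Zc3h12d (chr10:7832470-7870396, plus strand, protein coding), the relative of Regnase-1 known from lymphocytes, was at the limit of detection, with 6 counts over the 18 libraries and no library above 1. In lung CD45 KO it had 0 counts, which allows up to 11.8 CPM over the 3 libraries, and in lung control 2 counts. No fold is given for it. The other relatives listed, Zfp36l3, Zc3h12b and Zc3h12c, together had at most 55.6 CPM in any library and were not tested.

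The genes whose pattern was most like that of each member were taken as the 3 highest Pearson correlations of log2 CPM over 18 libraries among the 1915 other genes tested. These values mostly carry the lung and marrow difference that the libraries share, so the correlation of deviations from group means is given beside them. For Zfp36 they were Dusp1 (0.95, within groups 0.49), the MAP kinase phosphatase gene, Vps37b (0.94, 0.52) and Nr4a1 (0.93, 0.49), and for Btg2 they were Ppp1r15a (0.97, 0.74), Csf2 (0.97, 0.49) and Junb (0.97, 0.39). Zfp36l1 lay closest to Crem (0.98, 0.56), Gadd45b (0.98, 0.34) and Junb (0.98, 0.16). Btg1 lay closest to Fos (0.97, 0.56), Pdcd1 (0.97, 0.04) and Rgs2 (0.96, 0.65). Zc3h12a lay closest to Ppp1r16b (0.94, 0.80), Vps37b (0.93, 0.59) and Crem (0.92, 0.53).

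Zfp36l2 lay closest to Kit (0.90, within groups 0.64), a growth factor receptor gene, Cxcr6 (0.89, 0.62), a chemokine receptor gene and Rora (0.89, 0.63), a nuclear receptor gene on which ILC2 depend. Among the 6 members themselves, the 15 pairwise correlations ran from -0.38 to 0.44 over the 12 marrow libraries and from -0.68 to 0.65 over the 6 lung libraries. Within either tissue the signs were thus mixed, at counts that are low for Zfp36, Btg2 and Zc3h12a in marrow.

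Immediate-early genes, which are also the genes induced by tissue dissociation, were listed beside the members. Without the members the list held 30 genes, 22 of them tested. In lung against mature controls 19 rose and 1, Klf2, fell, and the counts were the same against immature controls, beside 15% and 14.6% of all genes higher. Of the 22, 14 did not reach the filter on the marrow libraries alone, so that a rise was largely set by the filter for them, and the count is no support. Of the other 8, 5 rose and 1 fell against each marrow stage. Junb, an AP-1 subunit, was at 2803 ± 139 CPM in lung control, against 195 ± 65.8 CPM in mature control. Summed over the list, lung CD45 KO libraries held 26882 to 29396 CPM, lung control libraries 19820 to 21360 CPM and all marrow libraries 3026 to 4258 CPM. In lung CD45 KO against control 6 of the 22 rose (Egr1, Fosb, Jund, Nr4a1, Nr4a3 and Rgs1), with a list median of 0.44 beside 0.01 for all genes, where 2.51% of all genes passed (2.04% of all genes higher). In the same comparison 5 of the 6 members had positive values without passing and Btg1 a negative one (-0.32). The part of these genes in the members' differences was not tested.

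**Figure D4:**
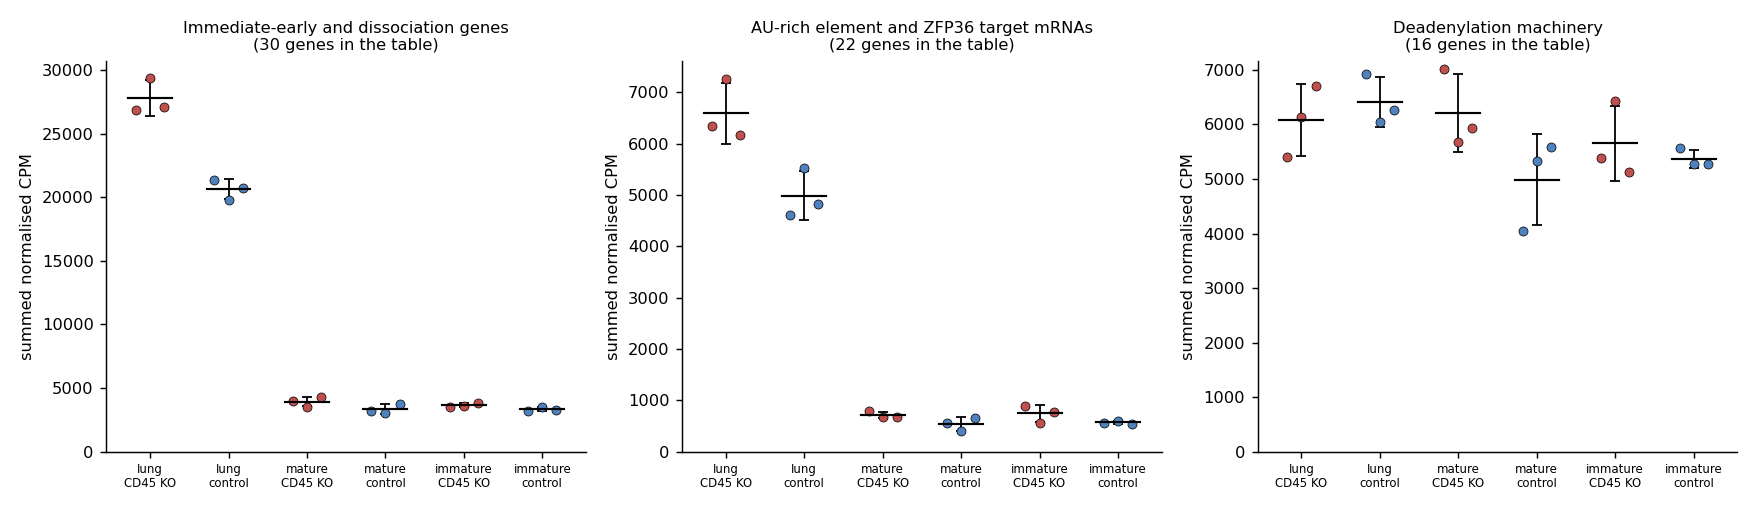
Summed normalised CPM (y axis, linear from 0, own scale in each panel) of immediate-early and dissociation genes, of AU-rich element and ZFP36 target transcripts and of deadenylation genes in the 18 libraries by group (x axis); points are libraries, with mean and SD (n = 3). The 2 left panels separate the 6 lung libraries from the 12 marrow libraries, whereas the deadenylation sums overlap (5396 to 6933 CPM in lung, 4039 to 7017 CPM in marrow).

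Of 22 transcripts listed as targets of AU-rich element decay, 12 were tested, and 10 rose in lung against mature controls with 0 lower, beside 15% of all genes higher. Against immature controls 10 rose and 1, the survival gene Mcl1, fell, beside 14.6% of all genes higher. Only 2 of the 12, Pim1 and Mcl1, reached the filter on the marrow libraries alone. For the other 10 a rise was largely set by the filter, so neither the counts nor the list medians are support. Pim1, a kinase gene, rose to 415 ± 52.8 CPM in lung control, against 166 ± 78.1 CPM in mature and 120.2 ± 51.5 CPM in immature control. Csf2, which encodes the cytokine GM-CSF, was at 931 ± 36.7 CPM in lung control, against 44.2 ± 16.2 CPM in mature and 40.3 ± 20.2 CPM in immature control. The list median was 3.25 against mature and 3.89 against immature controls, with genes at 0 counts in marrow set to their bound. The summed level was 4607 to 7268 CPM in lung and 403 to 897 CPM in marrow libraries. Fos is on this list and on that of immediate-early genes.

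Of transcripts known as Regnase-1 or Roquin targets, 5 of 13 listed were tested (Nfkbiz, Nfkbid, Icos, Ptgs2 and Zc3h12a, which is also a member), and 5 rose in lung against each marrow stage, beside 15% and 14.6% of all genes higher. Of these, 3 did not reach the filter on the marrow libraries alone, so that the count is no support, and the other 2 were Nfkbiz and Icos. Nfkbiz, which encodes an NF-kB cofactor, had 992 ± 23.5 CPM in lung control, against 199 ± 51.7 CPM in mature control. Icos, a costimulatory receptor gene, had 863 ± 84.5 CPM in lung control, against 230 ± 72.7 CPM in mature control.

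With CD45 missing, few known targets passed, in comparisons where most calls among all genes were also higher (39 of 48 in lung and 21 of 32 in immature marrow). In lung, where 2.51% of all genes passed, 2 of 12 tested AU-rich targets did. They were Il5 (1028 ± 279 CPM in CD45 KO against 585 ± 116 in control, 0.86 ± 0.19) and Il13 (276 ± 64.5 against 105 ± 80.1, 1.42 ± 0.40). Il13 was at 35.2 to 192.5 CPM in lung control libraries and at 236 to 351 CPM in lung CD45 KO libraries. It passed the filter on low counts only through lung CD45 KO, so its rise was in part set by the filter and is no support. Of 5 Regnase-1 or Roquin targets, 2 passed, Nfkbiz (0.64 ± 0.14) and Icos (0.56 ± 0.15). In immature marrow, where 1.67% of all genes passed and 1.1% were higher, 1 of 12 AU-rich targets passed, Pim1, at 270.3 ± 73.3 CPM in CD45 KO against 120.2 ± 51.5 CPM in control (1.13 ± 0.31, adjusted p = 0.0321). The median of the 12 was 0 there, beside -0.01 for all genes, and 0.37 in lung, beside 0.01. In mature marrow 0 of 12 passed.

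The machinery that these factors recruit was read from lists of its genes. Of the 5 tested of 17 deadenylation genes, the poly(A)-binding protein gene Pabpc1 rose to 5067 ± 461 CPM in lung control, against 3204 ± 540 CPM in mature control (0.65 ± 0.13, adjusted p = 2.59e-05). The CCR4-NOT catalytic subunit gene Cnot6l fell to 583 ± 95.9 CPM in lung control, against 830.2 ± 114 CPM in mature control (-0.51 ± 0.17, adjusted p = 0.0182). Both also passed against immature controls (0.52 ± 0.13 and -0.61 ± 0.17). Beside these calls, 25.6% of all genes were called against mature and 25.5% against immature controls. Of 4 tested decapping and 5′ decay genes, Xrn2, a nuclear exonuclease gene, was lower in lung than in mature control (-0.91 ± 0.35, adjusted p = 0.0465). Against immature controls 0 of these 4 passed. Of 7 tested genes of other AU-rich and stem-loop binding proteins, 0 passed in lung against either marrow stage, as did 0 of 2 nonsense-mediated decay genes, and the exosome list had 0 tested genes.

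Of other BTG/TOB genes, Tob2, which encodes an adaptor to CCR4-NOT, was at 594 ± 14.7 CPM in lung control, against 69.4 ± 21.4 CPM in mature and 65.7 ± 23.9 CPM in immature control (3.04 ± 0.30 and 3.13 ± 0.29, adjusted p = 1.01e-14 and 8.46e-16). Tob1 went the other way against immature marrow, at 25.5 ± 16.8 CPM in lung control and 98.2 ± 31.9 CPM in immature control (-1.81 ± 0.61, adjusted p = 0.0203). Neither gene reached the filter on the marrow libraries alone, so the rise of Tob2 was largely set by the filter and is no support. In a list of kinase, phosphatase and 14-3-3 genes linked to ZFP36 proteins, 2 of 7 tested rose in lung against mature controls, beside 15% of all genes higher. They were Dusp1 (757.7 ± 35.8 against 36.8 ± 20.5 CPM) and the 14-3-3 gene Ywhab (596 ± 72.7 against 407 ± 92.0 CPM). Of these, only Ywhab reached the filter on the marrow libraries alone. With CD45 missing, none of the tested deadenylation, decapping, nonsense-mediated decay, AU-rich binding, BTG/TOB or ZFP36-linked kinase, phosphatase and 14-3-3 genes passed in any of the 3 populations.

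Antiproliferative function was set beside quiescence and cell cycle genes. Of 10 tested quiescence genes, 3 rose in lung against mature controls (Cdkn1a, Klf4 and Rb1) and 3 fell (Klf2, Satb1 and Rbl2). Beside this, 25.6% of all genes were called and 15% were higher. The 3 that rose did not reach the filter on the marrow libraries alone, so their rise was largely set by the filter and is no support. Of the other 7, 0 rose and 3 fell. Cdkn1a, the cell cycle inhibitor p21, was at 413 ± 49.6 CPM in lung control, against 13.3 ± 15.2 CPM in mature control, and Klf2, a quiescence factor, at 3.57 ± 6.18 CPM in lung control against 141 ± 14.3 CPM in mature control. Of 4 tested proliferation genes, 1 rose, the histone variant gene H2afz (0.85 ± 0.30, adjusted p = 0.0296). Against immature controls 0 of 4 passed, with H2afz at 272 ± 45.3 CPM in lung control and 290.7 ± 86.4 CPM in immature control (-0.08 ± 0.26, adjusted p = 0.857). In immature CD45 KO ILC2, the chromatin organiser Satb1 fell (-1.03 ± 0.29, adjusted p = 0.0499) as Zfp36l2 did, and the tubulin gene Tuba1b rose (1.17 ± 0.23, adjusted p = 0.00102), the only passing genes of these 2 lists in that comparison.

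Between mature and immature marrow ILC2 of control mice, 0 of 6 members passed by edgeR and 0 by DESeq2, with 0.0522% of genes called and 1 member, Zfp36, at an unadjusted p under 0.05 (103 of 1916 genes). Zfp36 was also the only member of the 6 whose libraries did not overlap (5.06% of genes higher without overlap). In the difference of CD45 effects between mature and immature ILC2, 0 of 1916 genes passed by edgeR or by DESeq2, and 94 were at an unadjusted p under 0.05, 3 of them members.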

How the data were processed

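ILC2 were sorted from lung and bone marrow (200 cells per sample per the labels, 100 per tube per the labels' protocols, which the sources used here do not settle) and the lysate was reverse transcribed with a barcoded oligo-dT primer, then amplified by PCR, per the labels' protocols. STAR and mm10 are named in the submitters' processing notes; no source used here gives the counting tool, annotation, strand use or collapsing by barcode. The authors deposited unscaled whole-number counts, by gene symbol, for 18 libraries. Such counts sample transcript 3′ ends, so levels were not compared between genes. The table has 0 ERCC entries.

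Counts were scaled by TMM and filtered with filterByExpr by group (minimum count 10), leaving 1916 genes. edgeR 4.0.16 in R 4.3.3 fitted 6 group means over 18 libraries, and the quasi-likelihood test was Benjamini-Hochberg adjusted over all 1916 genes. The common dispersion had a square root of 0.0969. SE is the absolute log2 fold change over the square root of F. Correlations used log2 CPM (prior count 2). Bounds use 3 counts over a group. Intervals are exact 95% and cover counting error only. Same-numbered libraries were checked for pairing: over 15 pairs of groups the correlations of their deviations ran from -0.089 to 0.076, in 0 with all above 0.1, so no block was used. Alternatives were DESeq2 size factors, no filter, DESeq2's Wald test (1.42.0), at least 10 counts in 3 libraries, a fit of the compared groups alone, a replicate block and leaving out each library. Steps were tested on simulated data. Motifs were searched in GENCODE M21 transcripts and RefSeq promoters. The genes, gene lists and tests were chosen with earlier results of these data known. Named were all 7 genes, up to 4 passing genes of a list by adjusted p, and the 3 nearest patterns; passing genes beyond these, where counts are spelled out, were named after their values were seen.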

Additional observations from a re-analysis of the deposited data

Results flagged for a closer look

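Btg1 was singled out because its CD45 effects lay on opposite sides in the marrow stages: all 3 mature CD45 KO libraries were above the 3 mature controls, and all 3 immature CD45 KO libraries were below the 3 immature controls. The difference of the effects, mature minus immature, was 0.67 ± 0.22 on the log2 scale. It ranked 7 of 1916 genes and did not pass (edgeR adjusted p = 0.826, unadjusted p = 0.00308), with 0 genes passing in that difference and adjusted p between 0.484 and 1 over the alternatives run. It was positive in all of them (0.53 to 0.77). Since Btg1 was picked by its separated libraries, that sign was set by the choice, and neither sign nor rank is support. Without overlap, 6.58% of genes were higher in mature CD45 KO and 8.51% lower in immature CD45 KO. The highest mature CD45 KO value was that of replicate 1, the library that stood apart. The lowest mature control value was that of replicate 1, the library with neutrophil markers. Without mature CD45 KO replicate 1 the mature effect was 0.25 (edgeR adjusted p = 0.652) and the difference 0.53. Without mature control replicate 1 they were 0.31 (edgeR adjusted p = 0.644) and 0.60.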

How the results depend on the processing

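The numbers below are log2 values or counts of genes, and the cause of each change was not tested. The Btg1 difference lung minus immature (-0.03) became 0.0072 with DESeq2 size factors, 0.014 with at least 10 counts in 3 libraries and 0.0052 in the DESeq2 Wald test. The Zfp36l1 difference mature minus immature (0.0050) became -0.00030, -0.0027 and -0.00057 under the same settings and -0.013 with only the groups compared. The Zfp36l2 change with CD45 in lung became -0.065 with only the lung libraries. Members passing numbered 0 by the Wald test in immature ILC2, and 1 with only the groups compared in lung and in the difference lung minus immature.

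Genes passing numbered 10 (immature), 1 (mature), 21 (lung minus immature) and 10 (lung minus mature) by the Wald test. They numbered 0 (mature), 13 (lung minus immature), 2 (lung minus mature) and 3 (mature against immature) with only the groups compared, and 22 (lung) and 4 (mature against immature) with no filter, a setting that moved the median of all genes by 0.13 in mature CD45 KO, by -0.11 in lung minus mature and by 0.11 in both lung against marrow comparisons.

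With 1 library left out, genes passing ranged from 12 to 26 (immature), 29 to 42 (lung), 3 to 12 (mature), 2 to 9 (lung minus immature) and 1 to 13 (lung minus mature), and members passing from 0 to 1 in immature, lung and lung minus mature. The counts that moved by over 1.5 times were as follows. In mature ILC2 (5 genes) 12 passed without CD45 KO replicate 1 and 3 without CD45 KO replicate 3. In immature ILC2 (32) 12, 13 and 19 passed without control replicates 1, 2 and 3, and 21 without CD45 KO replicate 2. In lung (48) 31, 29 and 29 passed without control replicates 1, 2 and 3. In lung minus immature (7) 2 passed without immature control replicate 1 and 3 without immature CD45 KO replicate 1. In lung minus mature (6) 1 passed without mature control replicate 1, 2 without mature control replicate 3 or lung CD45 KO replicate 3, 3 without lung control replicate 2 or 3 or lung CD45 KO replicate 1, and 13 without mature CD45 KO replicate 3. The Btg2 difference between mature and immature controls (-0.05) was 0.16 without mature control replicate 1 and 0.11 without immature control replicate 2. Ranges that crossed 0 were, for Btg1, -0.21 to 0.081 in lung minus immature; for Btg2, -0.34 to 0.44 in mature minus immature effects and -0.26 to 0.16 between mature and immature controls; and for Zfp36l1, -0.15 to 0.11 and -0.11 to 0.15 in the same comparisons. For Zfp36l2 they were -0.087 to 0.13 in lung, -0.59 to 0.17 in mature and -0.14 to 0.64 in lung minus mature. For Zc3h12a they were -3.20 to 0.61 in immature, -0.033 to 0.47 in lung, -0.97 to 0.62 in mature, -0.34 to 3.48 in lung minus immature, -0.33 to 1.25 in lung minus mature and -0.78 to 3.07 in mature minus immature. Of 432 member values with 1 library left out, 381 kept direction and side of the threshold.

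With the replicate number as a block, the Zfp36l2 change in immature ILC2 was -0.80 and still passed, 0 calls of members changed, and the sign of 1 value did, the Zfp36l1 difference mature minus immature (-0.00058). The numbers do not pair the libraries. Marrow levels of Zfp36, Btg2 and Zc3h12a rest on 0 to 12 counts per library, which limits any comparison there.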
